A study of Mus musculus with 18 samples.

Results

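Hearts of leptin treated ob/ob mice were set against hearts of wild type mice, using 5 and 4 arrays of the 18 in the series, and the arrays were taken by their sample titles with no measured value in the choice. The leptin mice were C57Bl/6J ob/ob animals that ate freely until an age of 6 months and then received recombinant mouse leptin for 1 month from an osmotic mini-pump. Calorie restricted ob/ob mice (n = 5) were held for 1 month to the intake of the leptin mice, and ad libitum ob/ob mice (n = 4) went on eating freely. The arrays of these 2 groups enter the shared fit of all 18 arrays, and so its spread estimate, filter and choice of probe sets. Otherwise their values are given only beside those of the leptin hearts. The wild type mice were C57Bl/6J animals labelled 6 months old, and the design text of the series gives 6 to 8 months. Their labels name no pump. All ob/ob groups carry the same mutation, so that genotype, pump treatment and any difference in age cannot be told apart between leptin and wild type hearts. All mice were killed between 7 and 8 AM, and RNA of the ventricular myocardium was hybridised to Affymetrix arrays, 1 array per sample. The question was which genes stayed apart from wild type after a month of leptin, and which could be shown to lie close to it.

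Leptin is a hormone of fat cells that reports energy stores to the brain and lowers food intake. The ob/ob mouse makes no working leptin and becomes obese and insulin resistant. Heart muscle takes most of its energy from fatty acids, whose uptake and oxidation are set by nuclear receptors such as PPAR-alpha and the estrogen-related receptors together with the coactivator PGC-1alpha, encoded by Ppargc1a. Heart cells also hold a circadian clock, in which BMAL1 (gene Arntl) and its partner CLOCK switch on genes that carry E-boxes, among them the Per genes, Nr1d1 and Dbp. REV-ERB proteins, encoded by Nr1d1 and Nr1d2, in turn repress Arntl and Nfil3 through elements that they share with the ROR activators.

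The 9 arrays were alike in their general measures. The median signal was 23.2 to 27.3 on leptin arrays and 23.1 to 29.1 on wild type arrays, and the 3' to 5' ratio of Gapdh, a measure of RNA integrity, was 0.799 to 0.868 and 0.802 to 0.819. Pearson correlations of log2 signals over the genes tested were 0.964 to 0.982 between leptin and wild type arrays, against 0.974 to 0.983 among leptin arrays and 0.970 to 0.979 among wild type arrays. Markers of ventricular cardiomyocytes were present throughout, with Myh6 at 8252, 8614, 6403, 8216 and 7303 on leptin arrays and 6799, 6631, 7118 and 7497 on wild type arrays. Wild type replicate 4 stood apart in matrix genes. Of 51 genes named here as close whose value was refitted, 7 were no longer shown close without this array, and they are marked where they are described. The atrial myosin light chain Myl7 ranged from 7.79 to 264 on leptin arrays and from 92.7 to 674 on wild type arrays. The number of arrays limits the precision, and the labels do not state how many animals gave RNA to each sample, so a p-value may reflect technical spread as much as that between animals.

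Of 10916 genes tested, 2 differed between leptin and wild type hearts at a limma adjusted p under 0.05, the potassium channel gene Kcnk1 upward and the clock gene Arntl downward. Each direction thus held 1 gene, or 0.00916% of those tested. Changes are differences of log2(signal + 5.13), with the constant taken at the 20th percentile of signal, and a change of 1 on this scale is close to a doubling of a well measured signal. At an unadjusted p under 0.05 there were 636 genes higher (5.83%) and 576 lower (5.28%), together 1212, against 546 expected with no difference. The leptin and wild type values did not overlap for 196 genes that were higher (1.8%) and 194 that were lower (1.78%). The median change over all genes was 0.004, with a median standard error of 0.127.

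Kcnk1 encodes TWIK-1, a background potassium channel of the K2P family. Its signal was 127, 107, 127, 130.1 and 141 in leptin hearts, against 56.5, 45.2, 58.6 and 38.9 in wild type hearts. The lowest leptin heart thus lay well above the highest wild type heart. The log2 change was 1.27 (95% interval 1.00 to 1.54; limma adjusted p = 0.000133). The signal was 277, 223, 246, 205 and 226 in calorie restricted hearts and 196, 252, 213 and 173 in ad libitum hearts. The leptin hearts thus fell between the other ob/ob hearts and wild type, without reaching either. The change against wild type was 1.96 in ad libitum hearts (limma adjusted p = 3.51e-07) and 2.14 in calorie restricted hearts (limma adjusted p = 3.68e-08), and these comparisons share the wild type arrays. Leptin hearts were lower than ad libitum hearts by a log2 change of -0.69 (limma adjusted p = 0.013). A second, dimmer probe set of Kcnk1 read 20.3 to 56.9 in leptin hearts and 3.77 to 17.0 in wild type hearts. Tested among all probe sets by themselves it was also higher, by 1.68 (limma adjusted p = 0.0459). Kcnk1 kept its call under each of the 21 alternative settings in which it was tested as a gene.

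Arntl encodes BMAL1, the activating partner of CLOCK. Its signal was 60.1, 76.2, 46.4, 50.4 and 62.8 in leptin hearts, against 154, 108, 112 and 103 in wild type hearts, and the groups did not overlap. The log2 change was -0.95 (95% interval -1.27 to -0.64; limma adjusted p = 0.0348). Signals of 115, 69.9, 98.9, 105 and 101 in calorie restricted hearts and 202, 192, 173 and 187 in ad libitum hearts lay above all leptin values except that of leptin replicate 2, which exceeded the lowest calorie restricted heart. Against the same wild type arrays the change was 0.65 in ad libitum hearts (limma adjusted p = 0.0805), and leptin hearts differed from ad libitum hearts by -1.61 (limma adjusted p = 4.74e-05). A second, dimmer probe set of Arntl did not follow, with a change of 0.22 (95% interval -0.24 to 0.69; limma adjusted p = 0.757 among all probe sets). The Arntl call rested close to the threshold, and it was not made with the leptin and wild type arrays alone. It was lost on leaving out leptin replicate 1, 3, 4 or 5 or wild type replicate 1, 2 or 3, with limma adjusted p between 0.0637 and 0.140, while the change stayed between -0.83 and -0.99.

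**Figure D1:**
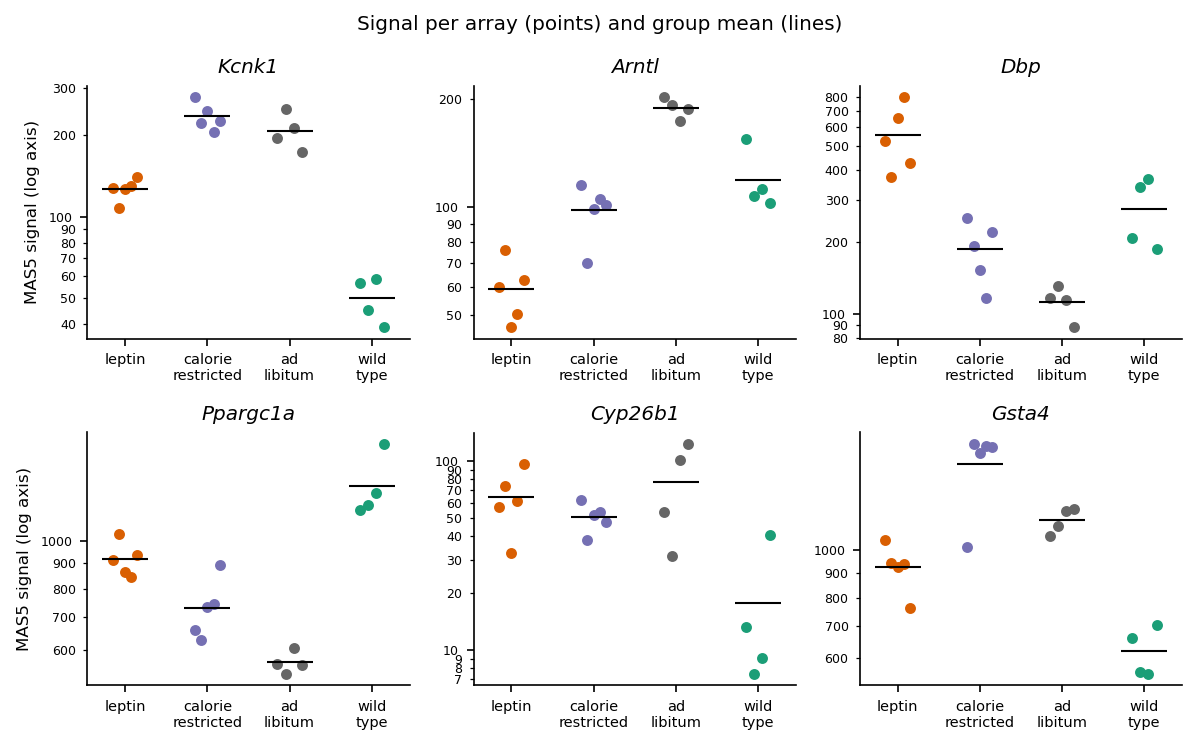
Signal per array (points, log axis) and group mean (lines) of 6 genes in leptin, calorie restricted, ad libitum and wild type hearts (n = 5, 5, 4 and 4). The leptin mean lies between the means of the other ob/ob groups and wild type for Kcnk1, Gsta4 and, from below, Ppargc1a, and is the lowest mean for Arntl and the highest for Dbp.

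The promoter of Arntl is shown with those of 2 other clock genes, Nfil3 and Per1, because these windows held letters known from clock control. The windows run from 250 bases before to 50 bases after the start of the transcript (RefSeq, GRCm38.p6), written 5' to 3' on the strand of the gene. Capitals mark TAGGTCA, the core of the element bound by ROR and REV-ERB proteins, or CACGTG, the canonical E-box, and each motif was searched on both strands. In the window of Nfil3 the element lies on the opposite strand.
Arntl (chr7:113207261-113207560, plus strand): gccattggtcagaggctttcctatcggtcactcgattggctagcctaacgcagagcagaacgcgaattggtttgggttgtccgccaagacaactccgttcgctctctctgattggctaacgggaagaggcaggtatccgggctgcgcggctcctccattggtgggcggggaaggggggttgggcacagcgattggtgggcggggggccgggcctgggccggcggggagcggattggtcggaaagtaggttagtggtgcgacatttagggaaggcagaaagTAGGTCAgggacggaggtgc
Nfil3 (chr13:52980990-52981289, minus strand): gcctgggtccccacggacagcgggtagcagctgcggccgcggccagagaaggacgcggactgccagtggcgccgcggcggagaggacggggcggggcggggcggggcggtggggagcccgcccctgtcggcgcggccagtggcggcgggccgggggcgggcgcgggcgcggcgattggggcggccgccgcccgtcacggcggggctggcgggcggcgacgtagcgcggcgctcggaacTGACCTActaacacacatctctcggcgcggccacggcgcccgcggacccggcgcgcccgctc
Per1 (chr11:69098699-69098998, plus strand): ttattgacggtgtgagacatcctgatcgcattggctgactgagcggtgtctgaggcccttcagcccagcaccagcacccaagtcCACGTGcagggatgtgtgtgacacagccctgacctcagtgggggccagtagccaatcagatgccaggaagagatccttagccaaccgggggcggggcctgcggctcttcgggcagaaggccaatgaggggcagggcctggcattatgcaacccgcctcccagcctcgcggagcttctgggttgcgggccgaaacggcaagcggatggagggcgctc
Of the 23 clock genes tested, 19 had a promoter in the table, and TAGGTCA was found in windows of 2 of them, Arntl and Nfil3. CACGTG was found in windows of 5, Per1, Cry1, Tef, Ciart and Tspan4, and not in those of Dbp, Nr1d1 or Per3. Some genes had several windows and were counted if any held a match, and the other windows of Arntl and Per1 held none. The shares that follow are per window, so they are not directly comparable with these counts. Over 32851 promoter windows of the same length, 2.61% held TAGGTCA and 7.15% held CACGTG. A match describes letters in a window and not a bound site. The window of Kcnk1 held neither motif.

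Closeness was tested gene by gene by asking whether the change lay within 1.5-fold of wild type in both directions. A gene needed a mean signal of at least 51.3, which is 10 times the constant added before the logarithm, since that constant hides changes of dim genes. Of 9165 genes with this signal, 8111 (88.5%) were shown within 1.5-fold at an adjusted p under 0.05. The other 1054 (11.5%) were not. Of these, 924 had an estimate inside the bound, but too near it for its standard error. The remaining 130 had an estimate at or beyond the bound. A further 1751 genes had too little signal for the question. Among the genes shown close, the median of the largest fold left inside the 95% interval was 1.27, and 645 had an unadjusted p under 0.05, so that close does not mean equal. The unadjusted 95% interval lay wholly inside the bound for 7828 genes, fewer than the 8111 shown close. A gene shown close can thus have a 95% interval that passes the bound. For 226 genes with enough signal the interval still held a change of at least 2-fold. With the same rule 7881 genes were shown close to wild type in ad libitum hearts and 7029 in calorie restricted hearts, from comparisons that share the wild type arrays.

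Other clock genes had estimates on both sides of wild type, and Arntl alone passed the adjusted test. Dbp, a transcription factor driven by BMAL1 and CLOCK, read 524, 373, 656, 797 and 427 in leptin hearts and 207, 338, 365 and 186 in wild type hearts. All leptin values were above all wild type values. The log2 change was 1.01 (95% interval 0.48 to 1.54; limma adjusted p = 0.191), and its other probe set gave 1.05. Ad libitum hearts were on the other side of the same wild type arrays, with a change of -1.20 (limma adjusted p = 0.0567), and leptin hearts exceeded ad libitum hearts by 2.21 (limma adjusted p = 0.000251). Nfil3, a repressor that opposes Dbp at shared target sites, read 36.7, 43.2, 33.9, 50.8 and 61.8 in leptin hearts and 94.2, 95.02, 58.7 and 143 in wild type hearts. A single leptin heart reached into the wild type range. The change of Nfil3 was -0.99 (95% interval -1.62 to -0.37; limma adjusted p = 0.269).

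Genes that restrain BMAL1 and CLOCK had mostly positive estimates. The change was 0.54 for Per1 (95% interval 0.14 to 0.94) and 0.59 for Nr1d1 (95% interval 0.11 to 1.08), with limma adjusted p of 0.336 and 0.377. Per2 (0.15), Per3 (0.15) and Cry2 (0.09) were shown within 1.5-fold of wild type, as were Nr1d2 (0.21) and Clock itself (0.07). Cry1, which encodes another repressor, had a negative estimate of -0.47 (95% interval -0.89 to -0.05). Of the 23 clock genes tested, 1 passed the adjusted test (Arntl, lower), and at an unadjusted p under 0.05 there were 7 higher and 3 lower, where 5.83% and 5.28% of all genes were. The median change was 0.15, against 0.004 over all genes tested.

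**Figure D2:**
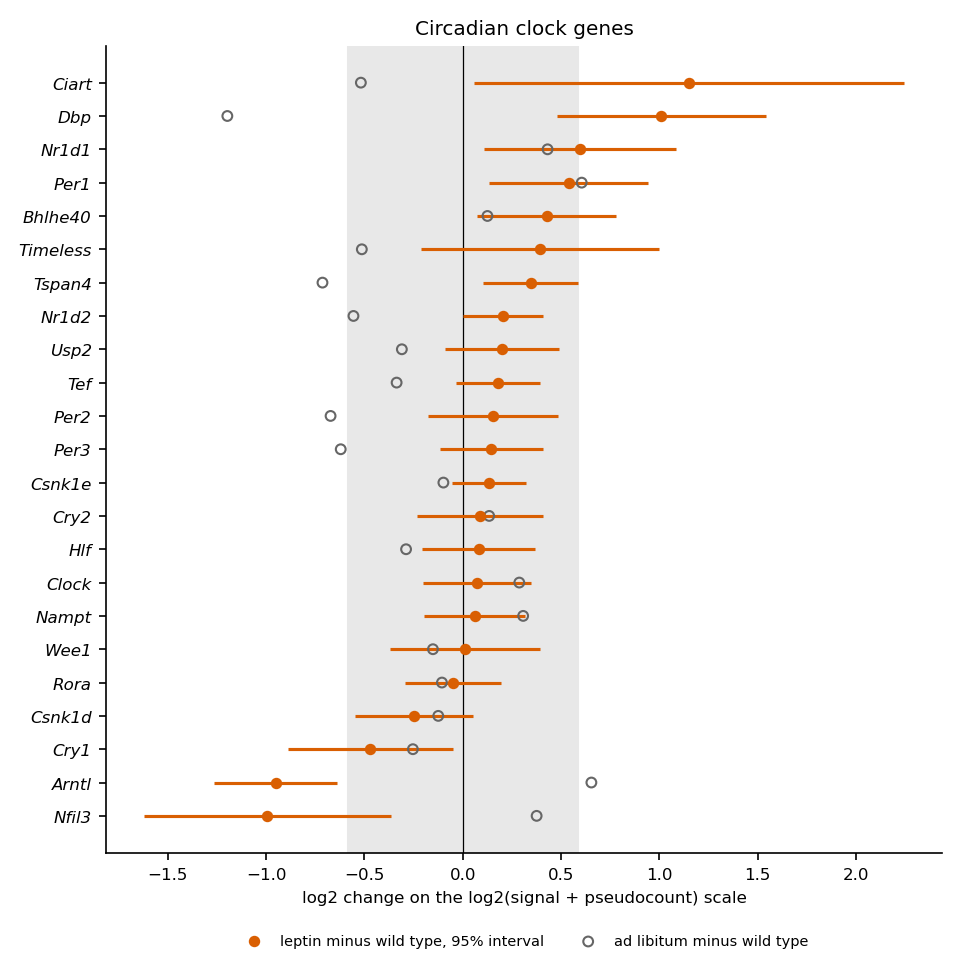
Log2 change of leptin minus wild type hearts with 95% interval (filled points and lines) for 23 clock genes, with ad libitum minus wild type as open circles. The grey band spans changes within 1.5-fold. Ciart, Dbp, Nfil3 and Arntl have estimates beyond the band, Nr1d1 lies at its edge, and 14 of the 23 genes were shown within it.

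**Figure D3:**
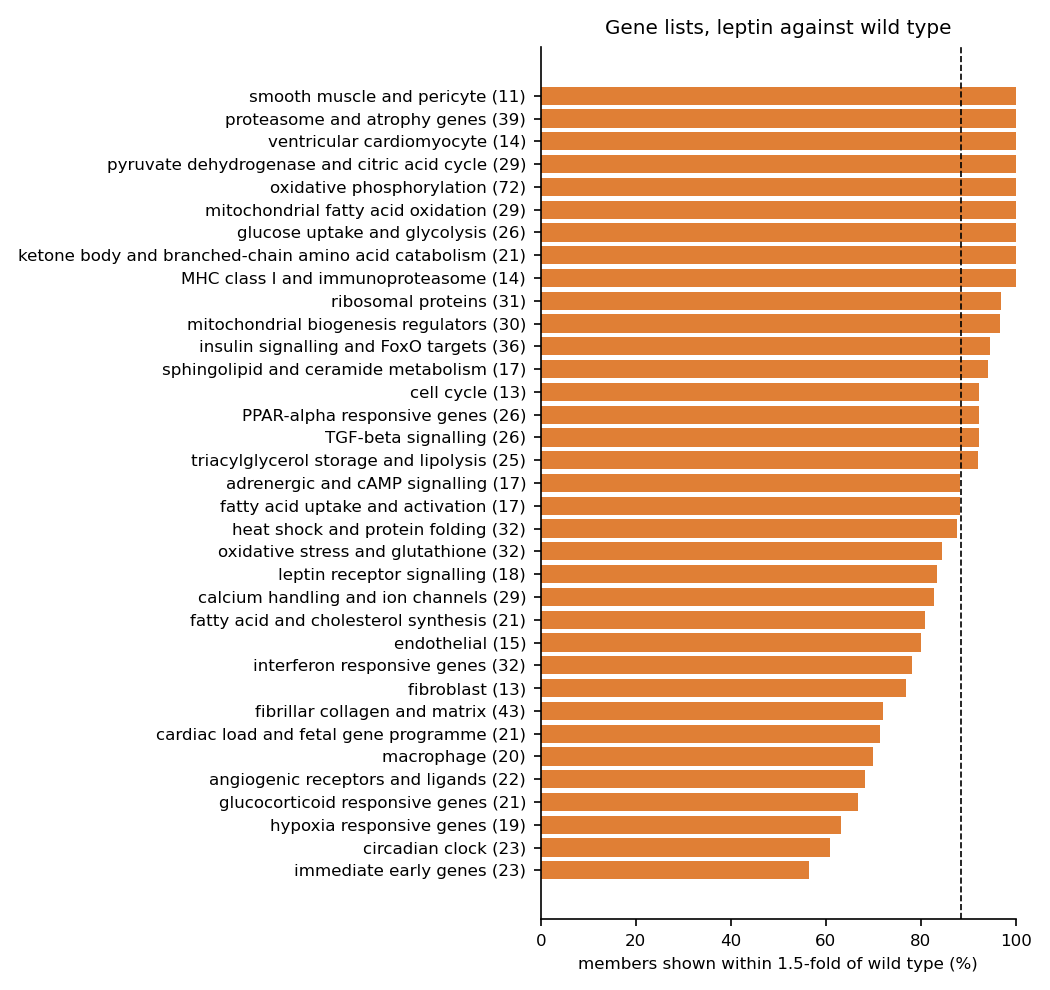
Share of members with enough signal that were shown within 1.5-fold of wild type in leptin hearts, for gene lists with at least 10 such members (their number in parentheses). The dashed line is the share over all genes with enough signal, 88.5%. The lists for fatty acid oxidation, glycolysis, the citric acid cycle, ketone bodies and oxidative phosphorylation reach 100%, those for fatty acid uptake, PPAR-alpha and triacylglycerol do not, and immediate early and clock genes are lowest.

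Most genes of fuel use were shown close to wild type. All members with enough signal were shown within 1.5-fold for mitochondrial fatty acid oxidation (29 of 29), glucose uptake and glycolysis (26 of 26), pyruvate dehydrogenase and the citric acid cycle (29 of 29), ketone body and branched-chain amino acid catabolism (21 of 21) and oxidative phosphorylation (72 of 72). No member of these lists passed the test of difference. In ad libitum hearts, on the same wild type arrays, 0 members of these lists were called either, with median changes between 0.06 and 0.14. There 0.165% of all genes tested were called higher and 0.22% lower. The share over all genes was 88.5%, and the median standard error of these lists lay between 0.0936 and 0.107, against 0.118 over all genes with enough signal. With any single array left out, the number shown close was 72 for oxidative phosphorylation, 28 or 29 for fatty acid oxidation and 25 or 26 for glycolysis. It was 26 to 29 for pyruvate dehydrogenase and the citric acid cycle and 18 to 21 for ketone body and branched-chain amino acid catabolism.

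Of the fatty acid uptake and activation list 15 of 17 were shown close, a share of 88.2% beside 88.5% over all genes. Angptl4 and Lmf1, a factor for the maturation of lipases (0.33, 95% interval 0.02 to 0.64), were not. The entry of fatty acids is shown by Cd36, which carries them across the cell membrane, and by Lpl, which frees them from lipoproteins. Cd36 read 4242, 4410.1, 3872, 4679.6 and 3554 in leptin hearts and 3863, 3756, 3457 and 3942 in wild type hearts, a change of 0.14 (95% interval -0.04 to 0.32). Lpl changed by 0.25 (95% interval 0.01 to 0.49), and Fabp3, which binds fatty acids in the cell, by 0.21 (95% interval 0.01 to 0.40). All 3 were shown close. In oxidation, Acadm, the medium-chain dehydrogenase, gave 0.04 (95% interval -0.13 to 0.21) and Acadl, the long-chain enzyme, 0.14 (95% interval -0.02 to 0.29). Hadha of the trifunctional protein gave 0.13 and Cpt1a of the carnitine shuttle 0.21, both within the bound. Over 21 alternative settings the change ran from -0.41 to 0.27 for Cpt1a and from -0.22 to 0.17 for Acadl. Neither was shown close with the probe set of largest variance. Eci2 had the smallest p for closeness in this list, with a change of -0.01 (95% interval -0.18 to 0.15).

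Among genes that respond to PPAR-alpha, 24 of 26 with enough signal were shown close, and 0 of 27 tested were called. The exceptions were Acot1 and Angptl4. Acot1, an acyl-CoA thioesterase, read 279, 265, 217, 132 and 49.8 in leptin hearts and 128, 129.7, 123 and 137 in wild type hearts. The leptin hearts spread on both sides of the narrow wild type range, and the 95% interval ran from -0.40 to 1.02. Angptl4, an inhibitor of lipoprotein lipase, read 312, 252, 270.1, 189 and 97.1 in leptin hearts and 451, 264, 208 and 214 in wild type hearts, with an interval of -0.97 to 0.24. Leptin replicate 5 was the lowest leptin heart for both, and also for Pdk4, the kinase that restrains pyruvate oxidation, which read 4859, 4760.2, 3799.6, 3587 and 1773 in leptin hearts and 4329, 3354, 3701 and 3979 in wild type hearts. Pdk4 (-0.11) was shown close all the same, as were Ucp3 (-0.01), Ppara itself (-0.18) and Plin2, the lipid droplet coat protein (0.34, 95% interval 0.08 to 0.60). Closeness was lost for Pdk4 without leptin replicate 1 or 2 or wild type replicate 2 or 3, and for Plin2 without leptin replicate 4 or 5 or wild type replicate 1 or 4. In calorie restricted hearts, on the same wild type arrays, 19 members of this list were called higher, where 6.75% of all genes tested were called higher and 8.21% lower. There Acot1 changed by 2.01 (limma adjusted p = 0.00075). In ad libitum hearts, on the same wild type arrays, 0 members of this list were called in either direction, and their median change was 0.02.

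Of the triacylglycerol storage and lipolysis list, 23 of 25 members were shown close. The droplet lipase Pnpla2 changed by 0.13 (95% interval -0.13 to 0.39) and its inhibitor G0s2 by -0.14 (95% interval -0.40 to 0.11). G0s2 was lower than wild type in ad libitum hearts, by a change of -0.85 (limma adjusted p = 0.00868), and leptin hearts exceeded ad libitum hearts by 0.71 (limma adjusted p = 0.00824). The synthesis enzymes Dgat1 (0.08) and Dgat2 (-0.14), the coat protein Plin5 (0.13) and the lipase Lipe (-0.08) were also shown close. Lpin2 (95% interval -0.04 to 1.38) and Pnpla3 (95% interval -0.64 to 0.24) were not. For glucose use, the transporters Slc2a1 (0.09) and Slc2a4 (0.06), Hk2 (-0.17) and the arrestin Txnip, a brake on glucose uptake (0.19, 95% interval -0.12 to 0.51), were shown close.

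**Figure D4:**
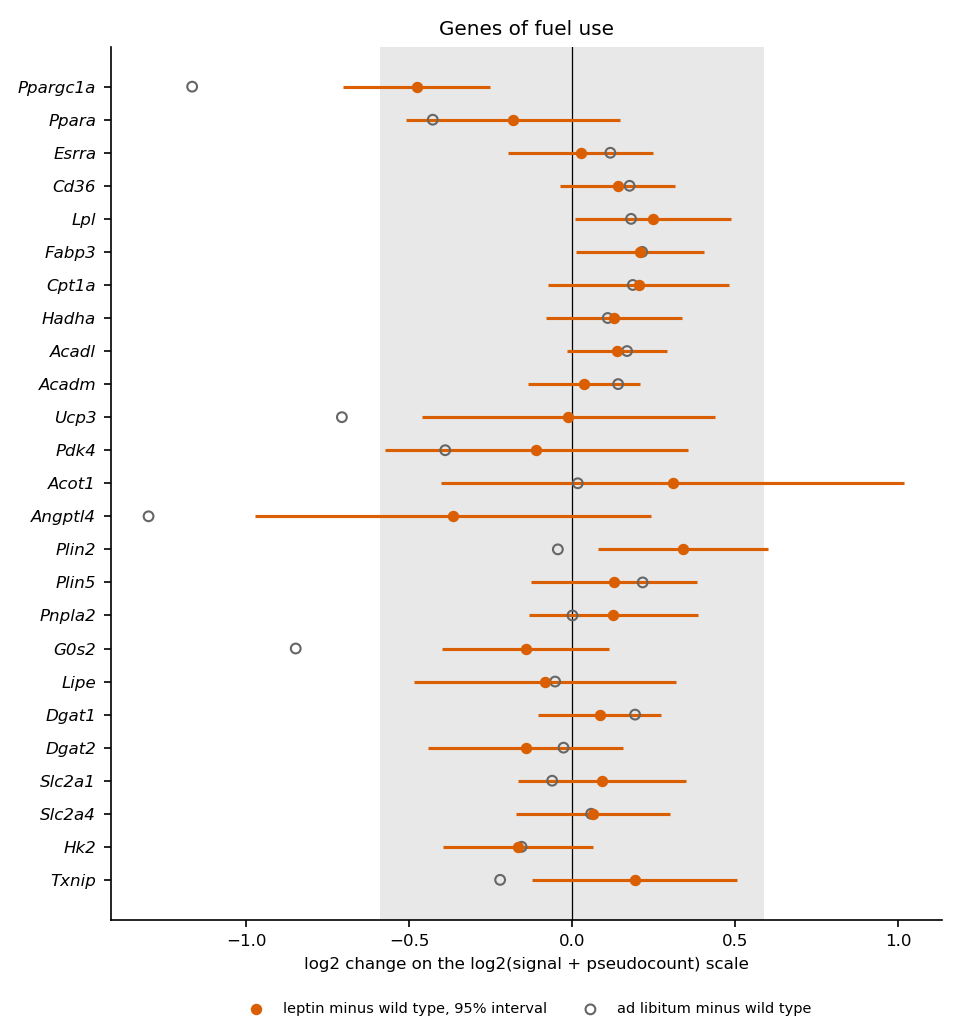
Log2 change of leptin minus wild type hearts with 95% interval (filled points and lines) for 25 genes of fuel use, with ad libitum minus wild type as open circles. The grey band spans changes within 1.5-fold. Ppargc1a, Acot1 and Angptl4 have intervals that leave the band, and Plin2 reaches just past its edge.

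The subunits of oxidative phosphorylation had small positive estimates almost throughout, with 71 of 72 above 0 and a median of 0.16, but after quantile normalization of the arrays 40 of 72 were above 0 with a median of 0.01. The 14 ventricular cardiomyocyte markers behaved alike, with 14 of 14 above 0 and a median of 0.21 as deposited and 10 of 14 above 0 with a median of 0.03 after quantile normalization. Both lists hold genes of high signal. The median over fatty acid oxidation genes was 0.08 as deposited and -0.01 after quantile normalization, and that over glycolysis genes 0.10 and 0.01. The size of these small shifts was thus not stable to the scaling, nor was the sign of many members of oxidative phosphorylation. Of these medians only that of fatty acid oxidation changed sign, but medians of other lists did too. Among them were pyruvate dehydrogenase and the citric acid cycle (0.09 to -0.04), PPAR-alpha responsive genes (0.08 to -0.003) and proteasome and atrophy genes (0.02 to -0.04). The number of genes shown close, in contrast, was 8140 after quantile normalization and 8111 as deposited.

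Ppargc1a was the exception among the regulators of mitochondria, of which 29 of 30 were shown close. Its signal was 915, 1034, 866, 844 and 937 in leptin hearts, against 1152, 1181, 1250.5 and 1569 in wild type hearts. The groups did not overlap, with all leptin hearts lower. The log2 change was -0.48 (95% interval -0.70 to -0.25; limma adjusted p = 0.138), which was neither called nor shown close. Without wild type replicate 4, the highest wild type heart, the change was -0.38 and Ppargc1a was shown close. Its 5 probe sets gave changes between -0.40 and -0.67. Ad libitum hearts read 564, 538, 607 and 561, a change of -1.17 against the same wild type arrays (limma adjusted p = 4.33e-05). Leptin hearts exceeded ad libitum hearts by 0.69 (limma adjusted p = 0.00511). The estrogen-related receptor gene Esrra, which works with PGC-1alpha, was shown close to wild type (0.03, 95% interval -0.20 to 0.25).

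Ad libitum hearts differed from the same wild type arrays in 42 genes, 18 higher (0.165% of those tested) and 24 lower (0.22%). The 8 with the largest change in each direction are given with their values in leptin hearts. They were chosen on the ad libitum and the wild type arrays. Their differences between leptin and ad libitum hearts, and between leptin and wild type hearts, thus partly follow from that choice. Of the 8 that were higher in ad libitum hearts, 1 was called in leptin hearts (Kcnk1) and 0 were shown close. Of all genes with enough signal, 88.5% were shown close. Gsta4, a glutathione transferase that handles products of lipid peroxidation, read 1052, 943, 925, 937 and 762 in leptin hearts and 659.6, 562, 558 and 701 in wild type hearts. All leptin hearts were above all wild type hearts, and the change was 0.57 (95% interval 0.29 to 0.85; limma adjusted p = 0.156), beside 0.90 in ad libitum hearts. Cyp2d22, a cytochrome P450 gene, read 101, 116, 103, 106 and 92.6 in leptin hearts and 63.0, 54.6, 79.6 and 78.4 in wild type hearts, again without overlap. Its change was 0.57 (95% interval 0.29 to 0.85), beside 0.87. Cdo1, the enzyme that oxidises cysteine on the way to taurine, changed by 0.83 (95% interval 0.35 to 1.30), beside 1.26 in ad libitum hearts.

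Cyp26b1, which degrades retinoic acid, had the largest estimate of these genes. It read 57.2, 73.7, 32.5, 61.4 and 96.8 in leptin hearts and 13.2, 7.52, 9.09 and 40.8 in wild type hearts. Wild type replicate 4 stood above the other wild type hearts and above 1 leptin heart. The change was 1.74 (95% interval 0.94 to 2.55; limma adjusted p = 0.138), and without wild type replicate 4 it was 2.15 (limma adjusted p = 0.0237). The change in ad libitum hearts was 1.90 (limma adjusted p = 0.0499). Its mean signal lay under the minimum for a test of closeness. Amy1, an amylase gene, changed by 0.51 in leptin hearts (95% interval 0.09 to 0.94) and 1.04 in ad libitum hearts, and Egln3, a prolyl hydroxylase that marks hypoxia-inducible factors, by 0.40 (95% interval -0.02 to 0.81) and 1.07. Col5a3, a fibrillar collagen chain, lay on opposite sides, with -0.34 in leptin hearts (95% interval -0.62 to -0.06) and 0.96 in ad libitum hearts. The difference of Col5a3 between leptin and ad libitum hearts was -1.30 (limma adjusted p = 0.000116).

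Of the 8 genes that were lower in ad libitum hearts, 4 were shown close to wild type in leptin hearts, beside 88.5% of all genes with enough signal. Tmem100, a membrane protein of endothelial cells, read 166, 187, 190.3, 203 and 174 in leptin hearts and 188, 232, 189.7 and 287 in wild type hearts, a change of -0.26 beside -0.99 in ad libitum hearts. Slc25a33, a mitochondrial nucleotide carrier, changed by -0.07 (95% interval -0.43 to 0.29), beside -0.89. Ifitm1, an interferon-inducible membrane protein, changed by 0.16 (95% interval -0.27 to 0.58), beside -1.06, and was not shown close without leptin replicate 2 or 3 or wild type replicate 1, 2 or 4. Ms4a6d, a macrophage gene, changed by -0.13 (95% interval -0.52 to 0.26), beside -1.06. Each of these 4 differed between leptin and ad libitum hearts, with limma adjusted p between 0.00576 (Tmem100) and 0.0239 (Slc25a33). Since the genes were picked by their difference between the same ad libitum and wild type arrays, these p-values are not independent support. The other 4 were Ppargc1a, described above, Nr4a3, Klf10 and Tac1, which were neither called nor shown close in leptin hearts. The nuclear receptor gene Nr4a3 gave -0.63 (95% interval -1.26 to -0.00), the TGF-beta inducible factor Klf10 -0.44 (95% interval -0.77 to -0.11) and Tac1, the precursor of substance P, -0.62 (95% interval -0.98 to -0.25).

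**Figure D5:**
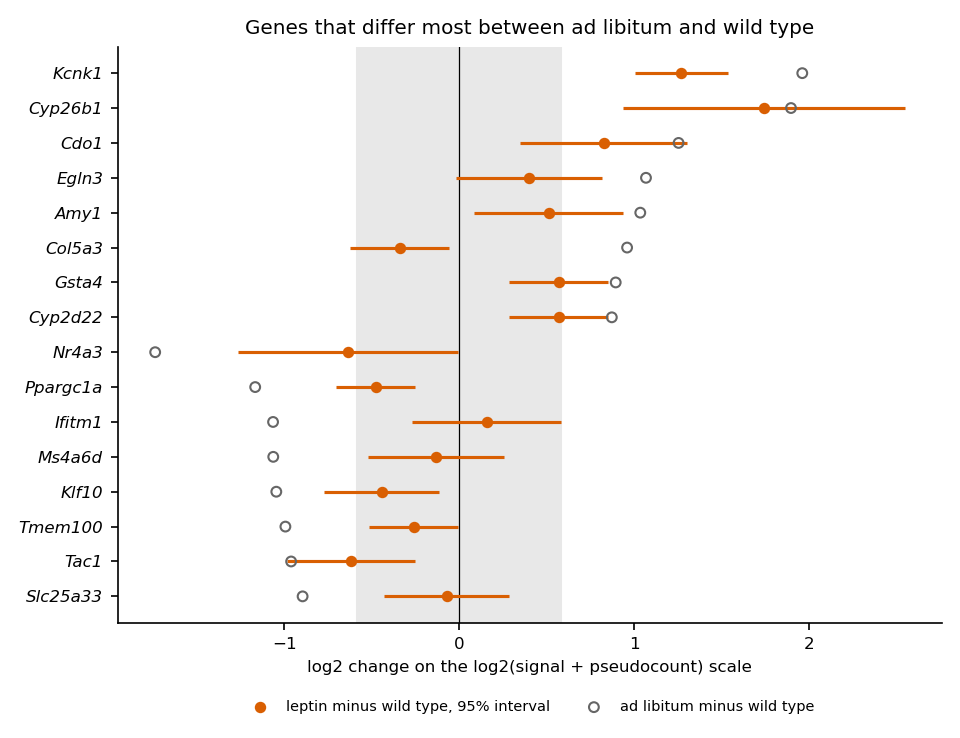
Log2 change of leptin minus wild type hearts with 95% interval (filled points and lines) for the 16 genes with the largest called changes of ad libitum minus wild type (open circles). The grey band spans changes within 1.5-fold, and both comparisons use the same 4 wild type arrays. Kcnk1 and Cyp26b1 have intervals wholly beyond the band, and Ifitm1, Ms4a6d, Tmem100 and Slc25a33 were shown within it.

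Apart from Kcnk1 and Arntl, the genes with the smallest p in each direction did not pass the adjusted test. Klhl40, known from skeletal muscle as a stabiliser of the thin filament, read 104, 149, 103, 102 and 97.5 in leptin hearts and 59.4, 61.3, 55.3 and 71.8 in wild type hearts, with no overlap, a change of 0.78 (95% interval 0.46 to 1.10; limma adjusted p = 0.0962). The transcription factor gene Lhx6 gave 0.67 (95% interval 0.39 to 0.95) and Car8, a member of the carbonic anhydrase family without catalytic activity, 0.45 (95% interval 0.25 to 0.64). Ell2, a transcription elongation factor, was on the lower side, with 233, 209, 259, 216 and 265 in leptin hearts and 484, 340.5, 315 and 381 in wild type hearts. Its change of -0.66 (95% interval -0.92 to -0.41; limma adjusted p = 0.0962) stood beside -0.62 in ad libitum and -0.69 in calorie restricted hearts. These 3 comparisons share the wild type arrays. Zfp526, a zinc finger gene, gave -0.67 (95% interval -0.92 to -0.43; limma adjusted p = 0.0702, and 0.0373 without leptin replicate 4 or 0.0438 without wild type replicate 4), Dut, which keeps uracil out of DNA, -0.45 (95% interval -0.63 to -0.27), and the guidance molecule Sema3c -0.70 (95% interval -0.98 to -0.42; limma adjusted p = 0.0962, and 0.00238 without wild type replicate 3). The leptin and wild type values of Lhx6, Car8, Zfp526, Dut and Sema3c did not overlap either. Over all genes tested, 1.8% were higher and 1.78% lower without overlap. As these genes were picked by small p on the same arrays, their lack of overlap is no further support. Car8 was shown close without leptin replicate 5 or wild type replicate 2, and Dut without leptin replicate 4. Over 21 alternative settings the change ran from -0.008 to 0.50 for Car8, which was called in 0, and from -0.49 to 0.08 for Dut, called in 2.

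Of the calcium handling and ion channel list 24 of 29 members (82.8%) were shown close, beside 88.5% over all genes, and 1 was called, Kcnk1. The number shown close was 20 to 24 with any single array left out. Atp2a2, the calcium pump of the sarcoplasmic reticulum, changed by 0.30 (95% interval 0.03 to 0.57), its inhibitor Pln by 0.22 (95% interval -0.01 to 0.44) and the calcium store protein Casq2 by 0.12 (95% interval -0.02 to 0.26). Atp2a2 was no longer shown close without leptin replicate 3 or 5 or wild type replicate 4. Scn4b, a sodium channel beta subunit, read 236, 228, 266, 270.1 and 148 in leptin hearts and 436, 348, 261 and 406 in wild type hearts. A single wild type heart fell into the leptin range. The change was -0.65 (95% interval -1.01 to -0.29; limma adjusted p = 0.228). Kcnh2, the potassium channel of the rapid delayed rectifier current, was higher in all leptin hearts, with 441, 397, 399, 424 and 402 against 261, 357, 303 and 324 in wild type hearts. Its change was 0.41 (95% interval 0.16 to 0.66; limma adjusted p = 0.266). The sodium-calcium exchanger gene Slc8a1 gave 0.45 (95% interval 0.11 to 0.78), and Casq1, another calcium store protein, gave -0.41 (95% interval -0.81 to -0.01), and neither was shown close. In the adrenergic and cAMP list 15 of 17 were shown close, and the 2 that were not encode phosphodiesterases, Pde3a (0.78, 95% interval 0.28 to 1.29) and Pde4b (0.48, 95% interval 0.19 to 0.77).

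Of 21 genes of cardiac load with enough signal, 15 were shown close and 0 were called, and the fetal isoforms and natriuretic peptides were among those not shown close. Myh6, the adult ventricular myosin of mice, changed by 0.14 (95% interval -0.06 to 0.34). Its fetal counterpart Myh7 read 781, 862, 711, 264 and 889 in leptin hearts and 297, 469, 557 and 271 in wild type hearts, and 4 of 5 leptin hearts lay above all wild type hearts. The interval of Myh7 ran from -0.04 to 1.54. For the natriuretic peptides the intervals were -0.75 to 1.16 (Nppa) and -0.98 to 0.48 (Nppb), which leave changes of more than 1.5-fold in either direction possible. Skeletal actin Acta1 read 1047, 1552, 2037, 615 and 1749 in leptin hearts and 3071, 1927, 2012 and 2456 in wild type hearts, a change of -0.85 (95% interval -1.62 to -0.08; limma adjusted p = 0.415). Ankrd1 (-0.36) and Uchl1 (0.34) were the others not shown close.

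Of the matrix genes with enough signal 31 of 43 were shown close, and 0 of 47 tested were called. Collagen Col1a1 read 228, 290.1, 259, 186 and 219.9 in leptin hearts and 189, 160.4, 129.6 and 624 in wild type hearts, and Col3a1 835, 898, 1124, 591 and 1102 in leptin hearts and 698, 775, 578 and 2646 in wild type hearts. In both genes wild type replicate 4 was far above the other wild type hearts. Their intervals were -0.63 to 0.76 and -0.86 to 0.65. Timp4, an inhibitor of matrix proteases, gave -0.56 (95% interval -0.87 to -0.25) and the thrombospondin gene Thbs4 0.62 (95% interval -0.01 to 1.26). Without wild type replicate 4, 2 matrix genes were called, Fn1 and Timp4, and 25 of 43 were shown close. The proteoglycans Dcn (0.07, 95% interval -0.14 to 0.29) and Bgn (0.02, 95% interval -0.22 to 0.26) were shown close. Markers of fibroblasts were shown close in 10 of 13, and in 8 without wild type replicate 4, where their median change was 0.23 instead of 0.05.

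Immune lists held no called gene. MHC class I and immunoproteasome genes were shown close in 14 of 14, and MHC class II genes in 5 of 6, a number that fell to 2 of 5 without wild type replicate 4. The class II genes H2-Ab1 (0.07, 95% interval -0.39 to 0.53) and H2-Aa (0.10, 95% interval -0.39 to 0.59) were among those close, but neither was without wild type replicate 4, and H2-Aa also not without leptin replicate 4 or wild type replicate 2. Interferon responsive genes were shown close in 25 of 32, and in 21 without wild type replicate 4. Gbp6, a guanylate-binding protein, read 735, 861, 391, 827 and 388 in leptin hearts and 286, 375, 321 and 355 in wild type hearts. All leptin values were above all wild type values, and 2 of them only narrowly. Its change was 0.85 (95% interval 0.32 to 1.37; limma adjusted p = 0.269). Of the macrophage markers 14 of 20 were shown close, and 12 without wild type replicate 4. Estimates were positive for 8 of 21 tested, with a median of -0.04. Csf1r gave -0.18 (95% interval -0.42 to 0.06) and Lyve1, a marker of resident macrophages and lymphatic vessels, -0.49 (95% interval -0.87 to -0.11). Mpeg1 and Ms4a7, neither shown close, had higher means in leptin hearts, with 157 against 126 and 70.4 against 60.5. In bulk tissue, fewer cells of a type and less RNA per cell cannot be told apart.

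Of 18 genes of leptin receptor signalling with enough signal 15 (83.3%) were shown close, beside 88.5% over all genes, among them Stat3 (-0.05, 95% interval -0.27 to 0.17), which carries the signal of the receptor, and Ptpn1, a phosphatase that ends it (-0.04, 95% interval -0.21 to 0.13). Socs3, the feedback inhibitor that leptin induces in the hypothalamus, read 94.5, 79.7, 83.6, 129 and 96.1 in leptin hearts and 167, 121, 116 and 161 in wild type hearts. It was lower in 4 of 5 leptin hearts than in any wild type heart, with a change of -0.53 (95% interval -0.97 to -0.09; limma adjusted p = 0.383). Cish, of the same family of inhibitors, and the phosphatase gene Ptpn2 were also not shown close, with intervals of -0.72 to 0.22 and -0.31 to 0.74. The transcripts of leptin and of its receptor, Lep and Lepr, lay below the filter on low signal. In insulin signalling 34 of 36 were shown close and 0 were called. Igf2, the fetal growth factor, gave 0.57 (95% interval 0.12 to 1.02) and was not shown close, and Ddit4, which restrains mTORC1, gave -0.47 (95% interval -1.01 to 0.06).

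Stress-responsive lists contained many genes of uncertain position. Immediate early genes were shown close in 13 of 23 and hypoxia responsive genes in 12 of 19. Glucocorticoid responsive genes were shown close in 14 of 21, and the median standard errors of these 3 lists were 0.157, 0.155 and 0.154, against 0.118 over all genes with enough signal. Fkbp5, a glucocorticoid receptor co-chaperone, read 500.4, 435, 492, 459 and 321 in leptin hearts and 279, 376, 308 and 269.7 in wild type hearts, a change of 0.51 (95% interval 0.18 to 0.83). The glucocorticoid receptor gene Nr3c1 was shown close (-0.06, 95% interval -0.22 to 0.10). Proteasome and atrophy genes were shown close in 39 of 39 and ribosomal protein genes in 30 of 31.

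Endothelial markers had positive estimates in 15 of 15 genes and, after quantile normalization, in 14 of 15, with medians of 0.23 and 0.21. Tek, the angiopoietin receptor, read 336, 329.7, 329, 291 and 313 in leptin hearts and 213, 248, 251 and 277 in wild type hearts, with no overlap. Its change was 0.37 (95% interval 0.19 to 0.54; limma adjusted p = 0.149), and it was shown within 1.5-fold, though not without wild type replicate 4. Of the 15 endothelial markers 12 were shown close, and 8 without that array. The summed signal of the 15 endothelial markers was 9999.7 to 11528 in leptin hearts and 9347 to 10277 in wild type hearts. The summed signal of 5 erythroid markers was 143 to 238 in leptin hearts and 311 to 364 in wild type hearts, without overlap. Most of that difference came from Alas2, the first enzyme of haem synthesis in red cell precursors. Alas2 read 135, 82.2, 43.7, 112 and 44.1 in leptin hearts and 198, 184, 235 and 229 in wild type hearts, a change of -1.41 (95% interval -2.32 to -0.51; limma adjusted p = 0.28). Slc4a1, another erythroid marker, was also lower without overlap, with means of 18.9 and 33.1 in leptin and wild type hearts, but was too dim to be tested. Hbb-b2 had means of 69.1 and 69.2 and was shown close. Hba-a1 (14.98 and 13.2) and Hba-a2 (9.54 and 8.87) lay below the filter on low signal, so they cannot show whether their RNA followed. The summed signals of atrial markers overlapped, at 5897 to 8033 in leptin hearts and 6044 to 7900 in wild type hearts, but Clu and Nppa made up most of these sums. The atrial light chains and sarcolipin had lower means in leptin hearts, with 92.1 against 355 in wild type hearts for Myl7, 167 against 359 for Myl4 and 15.7 against 85.8 for Sln. Their values overlapped, with leptin replicate 2 and wild type replicates 2 and 3 the highest of their groups. Of 8 atrial markers tested, 3 had positive estimates, and the median was -0.15. Means were higher in leptin than in wild type hearts for Tbx5 (123 against 68.4), Nppa (1699 against 1467) and Clu (4032 against 3979). In the fit with an atrial score as a covariate, Kcnk1 and Arntl were both called. The part of Alas2 and of the erythroid sum in the other results was not tested.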

How the data were processed

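The authors deposited linear signal intensities made with MAS5, per the submitters' processing notes, at 1 value per probe set on each array. No version or setting of MAS5 is named in the labels. Every array had a trimmed mean of 100.001 when 2% was cut at either end, so differences in total signal had been scaled away before deposit.

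Of 45101 probe sets, the platform annotation gave 34945 exactly 1 gene symbol, 932 several and 9160 none, and 64 were controls. By Entrez identifier 34741 sets matched the RefSeq genes of GRCm38.p6, and 0 symbols changed. The probe set with the highest mean stood for its gene (18193 genes). Signals were taken as log2(signal + 5.13), and 10916 genes with a mean log2 value at or above 5.18, the 40th percentile over genes, were tested. This scale understates changes of dim genes. Agreement of probe sets is given for the genes called and for Dbp and Ppargc1a.

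One model with a mean per group was fitted to all 18 arrays with limma 3.58.1 in R 4.3.3, with empirical Bayes moderation and two-sided tests. All adjusted p-values are Benjamini-Hochberg values of this limma fit over the 10916 genes, called under 0.05, and intervals are its 95% intervals, with no adjustment. Closeness used 2 one-sided moderated tests against 1.5-fold in each direction, adjusted likewise. The procedure was tested on simulated data. Alternatives changed the scaling, pseudocount, filter, probe set choice, arrays fitted, spread estimate, closeness bound and single arrays.

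The comparison, gene lists and fixed genes were chosen with earlier results of these data known. Named genes were the 5 with the smallest p in each direction, the 8 with the largest called change in each direction of ad libitum against wild type, up to 4 members per list with the smallest p and up to 4 with the smallest closeness p, and a fixed set. Other members not shown close, single cell markers, and Fn1, Per3, Cry2 and Clock, were named after their values were seen. A gene of the fixed set is not reported here.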

Additional observations from a re-analysis of the deposited data

Results flagged for a closer look

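Among 117 named genes, each examined within the leptin and the wild type arrays, 15 of 234 sets of arrays (6.41%) held 1 array whose gap to the others was large for the range of its group, where chance gives about 1 in 20. In leptin hearts the array apart was the lowest for Myh7 (264 in replicate 4, others 711 to 889), H2-Aa (690 in replicate 4, others 1077 to 1152), Per1 (133 in replicate 2, others 179 to 198), Plin5 (1032 in replicate 5, others 1372 to 1509), Scn4b (148 in replicate 5, others 228 to 270) and Smad3 (130 in replicate 4, others 150 to 159). It was the highest for Klhl40 (149 in replicate 2, others 97.5 to 104), Lpin2 (129 in replicate 3, others 95 to 102) and Pde3a (107 in replicate 1, others 61 to 71.3). In wild type hearts it was the lowest for Amy1 (84.3 in replicate 1, others 115 to 120), Ankrd1 (3068 in replicate 1, others 3721 to 3773) and Clu (3736 in replicate 2, others 4043 to 4091). It was the highest for Fabp3 (7679 in replicate 4, others 7192 to 7267), H2-Ab1 (357 in replicate 4, others 230 to 246) and Pnpla2 (1471 in replicate 4, others 1417 to 1425).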

How the results depend on the processing

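Kcnk1 was called under all settings listed here, and the number of called genes, 2 as reported, moved with the settings. It was 1 after quantile normalization, with no filter, with the filter at the 40th percentile of all probe sets (chosen after seeing the data), with the leptin and wild type arrays alone and when tested against a change of 1.2-fold. It was 7 with the filter at the 60th percentile, 4 with every probe set tested by itself, with the probe set of largest variance and with trended robust moderation, and 6 with array weights. Leaving out 1 array gave 1 to 9, the highest without wild type replicate 4. With the replicate number as a block it was 1, and since same-numbered leptin and wild type arrays had correlations of deviations between -0.197 and -0.00805, the numbers do not pair the samples. Arntl lost its call after quantile normalization (limma adjusted p = 0.0593), with the leptin and wild type arrays alone (0.229), with the block (0.0990), with no filter (0.120) and with the filter over all probe sets (0.0657); the cause was not tested beyond the number of genes or arrays that these settings change.

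The number shown close, 8111 of 9165, was 12572 of 14634 over all probe sets and 4037 of 5589 with the probe set of largest variance, which is often a dimmer one. It was 2167 with a tighter bound of 0.32 on the log2 scale and 8999 with 2-fold. Leaving out 1 array gave 7654 to 8039, and 7207 genes were shown close with any single array left out. Under all gene-level settings with the same bound 3315 were. With the probe set of largest variance, some genes named here as close were not shown close. Among them were Cpt1a, Acadl, Fabp3, Ucp3, Esrra, Dgat1, Txnip, Per2 and Nr1d2. Why the other genes were not shown close was not tested.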

Other observations

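Among lists not described so far, 0 genes were called. Sphingolipid genes were shown close to wild type in 16 of 17, and the sphingomyelinase genes Smpd2 (0.32, 95% interval 0.13 to 0.52) and Smpd1 (0.27, 95% interval 0.07 to 0.46) had the smallest p of that list. Of the genes for fatty acid and cholesterol synthesis, 17 of 21 were shown close, with Hmgcs1 of the cholesterol pathway at -0.07 (95% interval -0.26 to 0.13). TGF-beta signalling genes were shown close in 24 of 26, with Smad3 at 0.10 (95% interval -0.07 to 0.28), and the co-receptor Tgfbr3 (0.47, 95% interval 0.13 to 0.80) was not. Angiogenic receptors and ligands were shown close in 15 of 22. Ephb4, a receptor of venous endothelium, read 246, 228, 199, 217 and 177 in leptin hearts and 142, 129.9, 129.6 and 198 in wild type hearts, a change of 0.51 (95% interval 0.16 to 0.86; limma adjusted p = 0.302). Epha4, a receptor of the same family, had an estimate on the other side, with -0.42 (95% interval -0.70 to -0.13).

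Genes of heat shock and protein folding were shown close in 28 of 32, against 88.5% over all genes. Cirbp, a cold-inducible RNA-binding protein, read 169, 126, 249, 196 and 175 in leptin hearts and 243, 215, 267 and 248 in wild type hearts, a change of -0.43 (95% interval -0.78 to -0.09; limma adjusted p = 0.359). Hspa5, the main chaperone of the endoplasmic reticulum, gave 0.33 (95% interval 0.10 to 0.56) and was shown close, but not without leptin replicate 3 or wild type replicate 2 or 4. In the list for oxidative stress and glutathione 27 of 32 were shown close, among them the catalase gene Cat (-0.06, 95% interval -0.24 to 0.12) and Gstp1 (0.07, 95% interval -0.10 to 0.23).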
